A study of Mus musculus and Rattus norvegicus with 4 samples.

Results

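The CCN family comprises 6 genes, Ccn1 to Ccn6, which encode secreted proteins of the extracellular matrix. They were examined here for MEF2A binding in C2C12 cells, myoblasts of a mouse muscle line that had been kept in differentiation medium (2% horse serum) for 48 h. The family was taken whole by name, but it was chosen from a peak list whose runs of peaks at Ccn1 and Ccn4 were already known, so the peak counts and scores below are descriptions without a test. Each of the 6 genes was found among 21887 protein-coding genes on placed chromosomes, and every deposited peak within 100 kb of a gene span was taken, giving 11 of 2797 peaks. Binding was mapped by ChIP-exo, in which an exonuclease trims the immunoprecipitated DNA back to the bound protein. The series held 4 libraries, MEF2A and normal rabbit IgG from C2C12 cells, and MEF2A and IgG from primary cardiomyocytes of rats 1 to 3 days old, with 1 library in each group. Without replicates, no value below has a replicate error. The label calls the C2C12 cells myoblasts, and a peak list holds no expression levels against which cell type or gene activity could be checked. Rat peaks were not placed relative to genes, since no rat annotation was used, and the IgG libraries were not analysed here.

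CCN proteins are matricellular, meaning that they sit in the matrix and alter how cells respond to it rather than serving as its scaffold. Most are built from the same series of modules, an IGF-binding protein-like domain, a von Willebrand factor type C repeat, a thrombospondin type 1 repeat and a C-terminal cysteine knot, and they act through integrins, proteoglycans and bound growth factors. Ccn1 and Ccn2 are known as genes induced quickly by serum, stretch and the YAP and TEAD pathway. MEF2A is a muscle transcription factor that binds AT-rich DNA.

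MEF2A peaks lay within 100 kb of 3 of the 6 members. Ccn1 had 5 peaks, Ccn2 had 1 and Ccn4 had 5, while Ccn3, Ccn5 and Ccn6 had none. Of all protein-coding genes, 22.0% had a peak within this distance and 0.297% (65 genes) had 5 or more, a group that includes 2 members. Ccn1, Ccn2 and Ccn4 each contained a peak within the span itself, which held for 4.57% of protein-coding genes. Because these same peaks led to the choice of the family, its counts carry no weight against those shares. Of the 11 peaks, 5 lay inside a member and 10 lay inside it or within 10 kb of it.

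**Figure D1:**
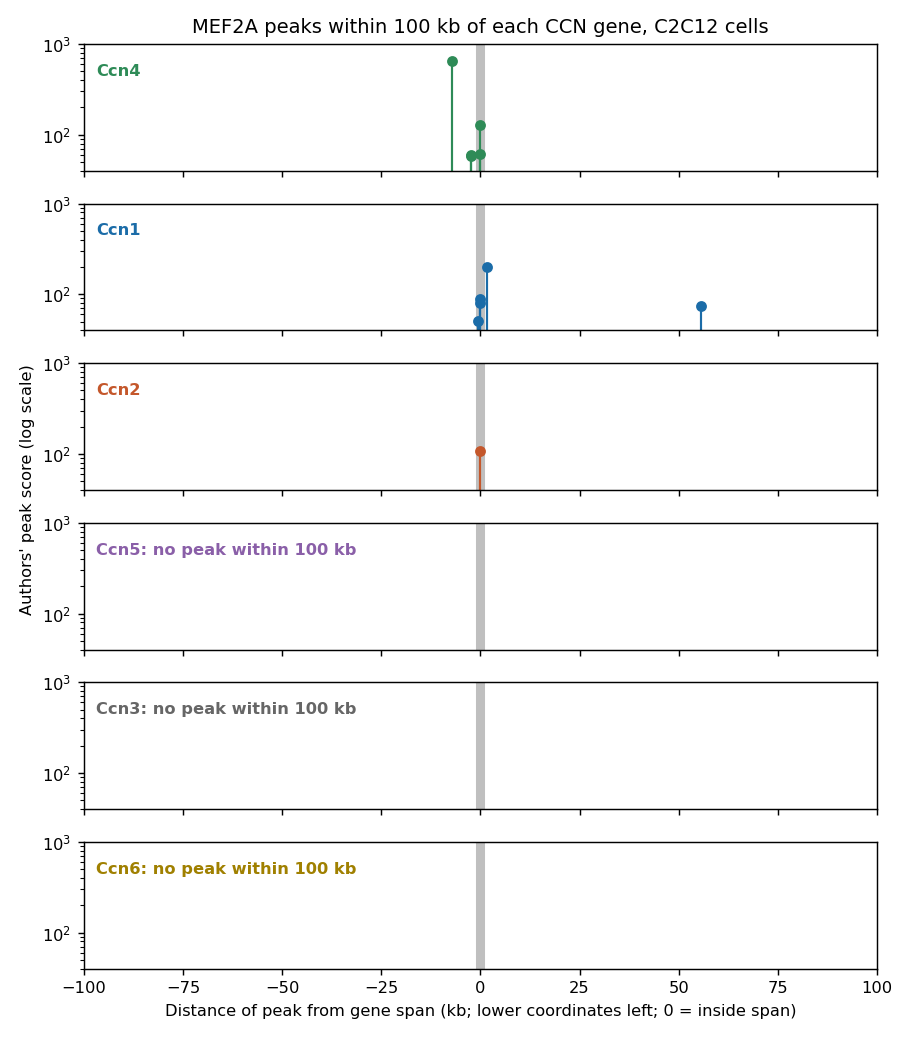
Position and score of every C2C12 MEF2A peak within 100 kb of each CCN gene. The horizontal axis gives distance from the gene span in kb, with lower coordinates to the left and peaks inside the span at 0, and the vertical axis gives the authors' peak score on a log scale. The peaks gather at Ccn4, Ccn1 and Ccn2, with a single distant peak 55.6 kb from Ccn1, and the panels of Ccn5, Ccn3 and Ccn6 are empty.

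Among the RefSeq promoters used here (build GRCm38.p6, the assembly behind mm10), those of Ccn1, a member with peaks, and Ccn6, a member without, were available. They are shown because the Ccn1 start site lies between its strongest peak and its internal peaks. Each runs from 250 bases before the start site to 50 after it. The Ccn1 window is at chr3:145649936-145650235 and the Ccn6 window at chr10:39163745-39164044, both on the minus strand. Capitals mark a match to the motif of TEAD factors.
Ccn1 promoter: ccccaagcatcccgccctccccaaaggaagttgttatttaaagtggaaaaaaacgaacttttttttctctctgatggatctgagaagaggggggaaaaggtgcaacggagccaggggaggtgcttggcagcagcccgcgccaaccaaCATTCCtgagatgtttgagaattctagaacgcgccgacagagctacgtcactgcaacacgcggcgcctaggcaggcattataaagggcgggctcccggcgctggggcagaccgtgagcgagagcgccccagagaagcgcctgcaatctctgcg
Ccn6 promoter: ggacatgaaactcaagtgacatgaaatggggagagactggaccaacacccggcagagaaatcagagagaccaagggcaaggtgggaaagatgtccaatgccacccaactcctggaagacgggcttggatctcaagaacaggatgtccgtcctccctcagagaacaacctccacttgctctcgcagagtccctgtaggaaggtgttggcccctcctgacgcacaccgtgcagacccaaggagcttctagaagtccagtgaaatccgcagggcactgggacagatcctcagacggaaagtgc

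Neither window was reached by a peak. The nearest peak was 921 bp from the Ccn1 window and 989 kb from that of Ccn6. Of all 32851 promoter windows in the table, 99 (0.301%) overlapped a peak and 235 (0.715%), the Ccn1 window among them, had a peak within 1 kb. Both strands were searched for 3 motifs. The MEF2 motif (CTA, then 4 A or T bases, then TAG) was in neither window and in 0.557% of all windows. The CArG box bound by serum response factor (CC, then 6 A or T bases, then GG) was in neither window and in 1.63% of all. The TEAD motif (GGAATG, or CATTCC on the other strand) occurred in the Ccn1 window, from 103 to 98 bases before the start site, and not in that of Ccn6; 14.7% of all windows hold it. A match describes the letters and does not show a bound site. The start site of Ccn6 in this table lies within the gene span rather than at its end. Ccn2, Ccn3, Ccn4 and Ccn5 had no promoter in the table, so their strand was not used, and their peaks are placed by coordinate alone.

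Ccn1 (gene ID 16007, formerly Cyr61) encodes an integrin ligand that promotes cell adhesion and migration and the growth of blood vessels. It is a short gene on the minus strand (chromosome 3, 145646971 to 145649985, mm10, 3015 bp). Its strongest peak scored 198.02 and lay at 145651734 to 145652111, from 1749 to 2126 bp upstream of the start site. This peak ranked 433 of 2797, within the highest 15.5% of the list, and was 378 bp wide. The score is the authors' own value for each peak, and peaks with higher scores are called stronger here. Its scale is not given, so ratios of scores cannot be read as fold differences in binding. A pair of weaker peaks lay inside the gene. The peak at 145648873 to 145649015 scored 88.12 and covered positions 970 to 1112 bp downstream of the start site. The peak at 145648392 to 145648496 scored 79.64 and lay 1489 to 1593 bp downstream, with 376 bp between the pair. The gene table gives no exons, so whether these peaks are exonic or intronic was not determined. Another peak lay past the other end of the gene, at 145646121 to 145646264, 707 bp from the span. Its score of 50.99 placed it at rank 2748, close to the floor of the list, where the lowest score was 50.08. These 4 peaks thus enclosed the whole gene within 5.99 kb, and the upstream peak scored 2.25 times as much as the next. The fifth peak (73.62, at 145705567 to 145705688) stood apart, 55.6 kb upstream, and the protein-coding gene nearest to it was Ddah1.

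Ccn2 (gene ID 14219, formerly Ctgf) encodes connective tissue growth factor, which is induced by TGF-beta and is known for its part in fibrosis, in muscle as elsewhere. Its span (chromosome 10, 24595442 to 24598683, 3242 bp) contained a single peak at 24597085 to 24597266. That peak scored 107.28, ranked 955 and was 182 bp wide. It began 1643 bp from the lower-coordinate end and ended 1417 bp from the other, near the middle of the gene. No other peak lay within 100 kb, and the next was 222 kb away inside Enpp3, with a score of 57.15.

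Ccn1 and Ccn2 are short genes that contain a peak, which few genes of their length do in this list. Of 3613 protein-coding genes no longer than Ccn2, 13 (0.360%) contained a peak. Ccn1 was the single gene among them with more than 1 (0.0277%). Jun, which encodes an AP-1 factor, held the strongest peak of the 13 (576.84), and Ccn2 the fifth, after Jun, the histone genes H2ac8 and H2bc8, which share a peak (235.1), and Mustn1 (116.54), a gene expressed in muscle and bone. The length class was set at the span of Ccn2 after the values were seen, so both members belong to it by its definition. Because the family was chosen with peaks known, these shares carry no weight for its members.

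Ccn4 (gene ID 22402, formerly Wisp1) encodes a WNT-induced member that fibro-adipogenic progenitors of skeletal muscle secrete and that acts on muscle stem cells. It is the longest of the family (chromosome 15, 66891369 to 66923201, 31833 bp) and had its strongest peak. The peak at 66883690 to 66884210, 7.16 kb from the lower-coordinate end, scored 645.19, was 521 bp wide and ranked 71, within the highest 2.54% of the list. Its score was 5 times that of the next Ccn4 peak, 3.26 times that of the strongest Ccn1 peak and 6.01 times that of the Ccn2 peak. These are ratios of scores of unknown scale, not of binding. The other 4 came as close pairs. Peaks at 66888838 to 66888977 (60.5) and 66888985 to 66889070 (57.93) were 7 bp apart, on the same side and 2.39 and 2.30 kb from the span. The peaks at 66893914 to 66894036 (60.61) and 66894038 to 66894208 (129.04) were separated by 1 bp and lay inside the gene, with the first beginning 2545 bp from the lower-coordinate end. All 5 peaks were therefore below or just inside that end, and none lay in the rest of the span or beyond it within 100 kb. Gaps of 10 bp or less numbered 44 among 2776 neighbouring pairs of the whole list. A gap of this size does not tell separate sites from a region that the peak caller split, and no summits were used here.

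**Figure D2:**
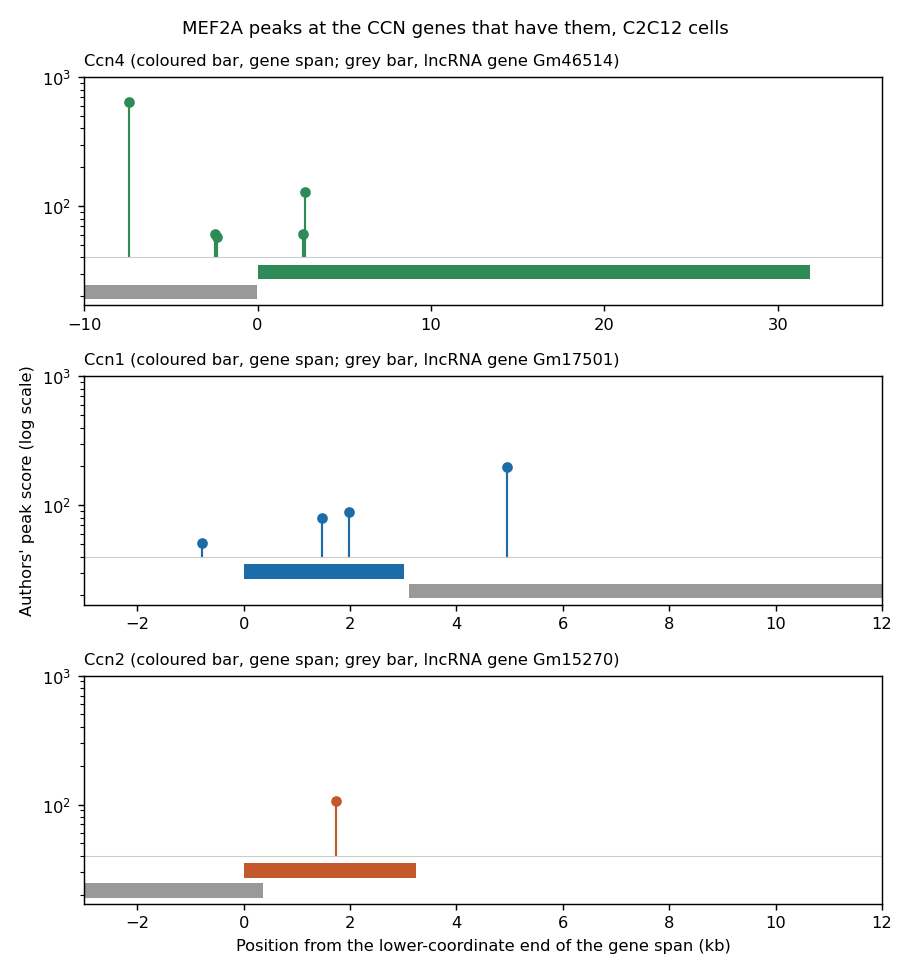
C2C12 MEF2A peaks around Ccn4, Ccn1 and Ccn2, by position in kb from the lower-coordinate end of each gene span (horizontal axis, a different range for Ccn4) and authors' score on a log scale (vertical axis). Coloured bars under the points are the gene spans and grey bars the adjoining long noncoding RNA genes, cut off at the panel edge. The 4 close Ccn1 peaks lie on both sides of and within the gene, while the 5 Ccn4 peaks lie at its lower-coordinate end.

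The runs at Ccn1 and Ccn4 were compared with the rest of the list. With peaks joined where at most 10 kb separated them, the 2797 peaks formed 2450 runs, of which 2186 were single peaks. Only 13 runs held 4 or more peaks and 7 held 5 or more. These counts depend on close pairs: with peaks under 1 kb apart merged, 3 were left within 100 kb of Ccn4 and 4 of Ccn1. The Ccn4 run (5 peaks over 10.5 kb) had the second highest top score of the 13 and the Ccn1 run (4 peaks over 5.99 kb) the fifth. The highest belonged to Ankrd1 (4 peaks over 9.33 kb, 1274.5), a titin-associated gene that is, like Ccn1 and Ccn2, a known YAP and TEAD target. The largest run (12 peaks, top score 282.06) lay nearest to Vmp1. Within both CCN runs 1 peak scored well above the others, and the median scores were 83.88 at Ccn1 and 60.61 at Ccn4, against 77.04 in the whole list. Over the family the median score was 79.64, and 6 of the 11 peaks were above the median of the list. The median width was 143 bp for the family and 144 bp for the list.

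**Figure D3:**
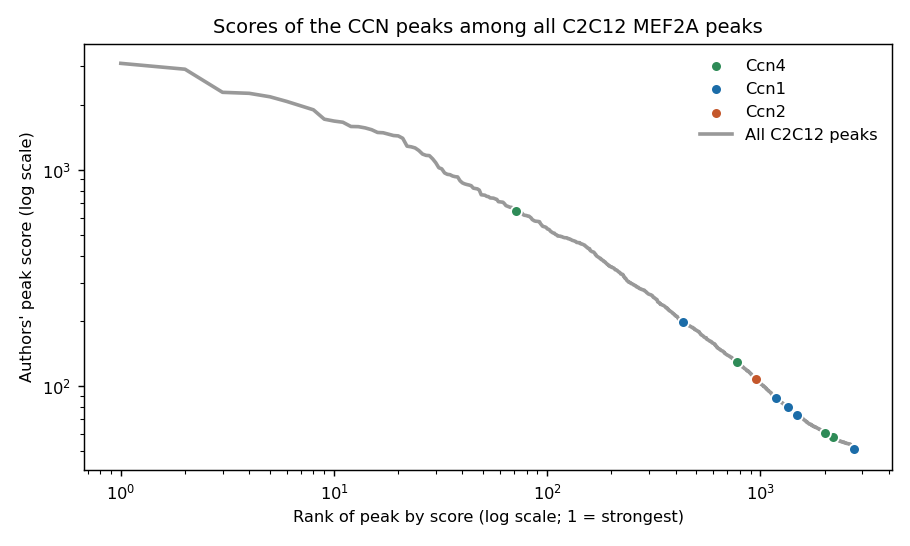
Rank (horizontal axis, log scale, 1 is the strongest) and authors' score (vertical axis, log scale) of the 11 CCN peaks on the curve of all 2797 C2C12 peaks. The strongest Ccn4 peak stands at rank 71, the strongest Ccn1 peak at 433 and the Ccn2 peak at 955, and the others run down to rank 2748.

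Ccn3, Ccn5 and Ccn6 had no peak near them, and their distances from the nearest one differed widely. Ccn5 (gene ID 22403, formerly Wisp2; chromosome 2, 163820752 to 163833146), the member that lacks the C-terminal module, was the closest to the limit. Its nearest peak, inside Pkig, was 135 kb away and scored 52.33. Ccn3 (gene ID 18133, formerly Nov; chromosome 15, 54745910 to 54753762), known as a growth-restraining member, was 395 kb from a peak of score 61.15. Ccn6 (gene ID 327743, formerly Wisp3; chromosome 10, 39150970 to 39174376), whose human counterpart is mutated in an inherited cartilage disorder, was 978 kb from the nearest, which scored 281.81. Of all protein-coding genes, 26.9% had a peak at least as near as Ccn5, 53.2% as Ccn3 and 79.3% as Ccn6, and the median distance was 354 kb. On either side of the 100 kb limit, the farthest peak counted was the one 55.6 kb from Ccn1 (73.62), and the first left out were the Ccn5 peak at 135 kb and a peak 172 kb from Ccn1 (83.44), inside Col24a1. Weaker sites than those deposited cannot be seen in such a list.

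**Figure D4:**
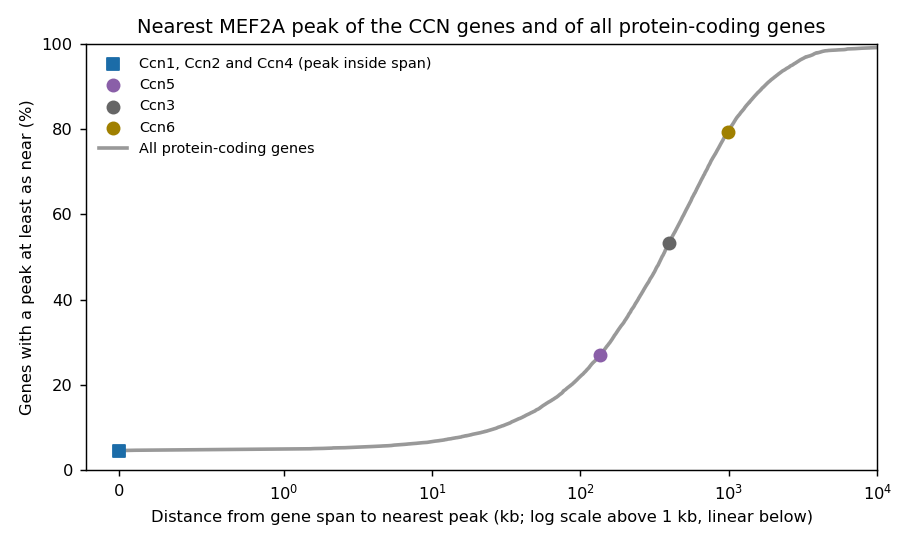
Share of genes with a MEF2A peak at least as near (vertical axis, percent) by distance from the gene span (horizontal axis in kb, linear to 1 kb and log beyond). The square stands for Ccn1, Ccn2 and Ccn4, which contain a peak (4.57% of all protein-coding genes do); Ccn5, Ccn3 and Ccn6 lie along the curve of all protein-coding genes at 26.9, 53.2 and 79.3%.

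Gene length did not order the members with and without peaks. The spans of Ccn1, Ccn2 and Ccn4 were 3015, 3242 and 31833 bp, against 7853, 12395 and 23407 bp for Ccn3, Ccn5 and Ccn6. Nor did chromosome, since Ccn4 and Ccn3 lie 12.1 Mb apart on chromosome 15 and Ccn2 and Ccn6 lie 14.6 Mb apart on chromosome 10. An adjoining long noncoding RNA gene was found beside the members with peaks alone. Such a gene lay within 100 bp of the span or overlapped it for 3 of the 3 members with peaks and 0 of the 3 without. Across protein-coding genes the shares were 25.5% of the 4823 with a peak within 100 kb and 17.7% of the 17064 without. This feature was noticed after the values were seen, and no test was made with 3 genes on each side. It also depends on the limit of 100 bp. Farther away, long noncoding RNA genes lay 85.9 kb from Ccn5 and 70.4 kb from Ccn6, while Ccn3 had none within 100 kb.

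At Ccn1 the neighbour is Gm17501, on the plus strand (chromosome 3, 145650077 to 145677827), whose start site is 92 bp from that of Ccn1. The pair is divergent, and the strongest Ccn1 peak lay 1657 to 2034 bp inside Gm17501. At Ccn4 it is Gm46514 (chromosome 15, 66875395 to 66891331), which stops 38 bp short of the Ccn4 span and contained 3 of the 5 Ccn4 peaks, among them the one scoring 645.19. Gm15270 (chromosome 10, 24331688 to 24595803, minus strand) overlapped Ccn2 by 362 bp and contained no peak within 100 kb of Ccn2. With protein-coding genes alone, the nearest gene was the member itself for 10 of the 11 peaks. With every annotated gene counted, this held for 6, because Gm17501 took the strongest Ccn1 peak and Gm46514 took 3 Ccn4 peaks, scoring 645.19, 60.5 and 57.93. Position alone does not show which gene a peak serves.

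The other protein-coding genes within 100 kb of the members with peaks were also checked for a peak inside the span, which 4.57% of all protein-coding genes had. They are too few to be compared with that share. Those around Ccn4 were Tg, Sla and Ndrg1, the last of them 6.12 kb away, and none contained a peak. Around Ccn1, Znhit6 contained none, and Col24a1, 95.0 kb away, contained the peak of score 83.44. Enpp1, 39.2 kb from Ccn2, contained none.

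Other genes were matched by the same number of peaks within 100 kb and then the closest top score on the log10 scale. Spacing of the peaks and gene length were not matched. For Ccn1, 25 other genes had 5 peaks. The closest were Arid5b (196.17), Parva (200.76) and Ube2b (195.08). Their farthest counted peaks lay 98.1, 95.2 and 82.2 kb away, in that order, against 55.6 kb for Ccn1. Of these only Arid5b, a much longer gene, held 2 peaks inside its span, the number that Ccn1 held. For Ccn4 the closest were its neighbours Tg, Sla and Ndrg1, which share its 5 peaks and so are not separate cases. Among the 22 that share none, Dnm3 (561.96) and Vwa8 (749.68) held all of their 5 peaks inside the span and Ccl3 (868.08) held none inside.

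Genes that work with the CCN proteins were then counted, from 6 lists compiled with earlier results of these data known. Of the receptors and coreceptors, 7 of 14 (50%) had a peak within 100 kb, against the 22.0% of all protein-coding genes. Only 2 of the 14 had one within 10 kb, where the share of all protein-coding genes was 6.68%, and 3 had one for which they were the nearest protein-coding gene (7.73% of all). Of the 7, Itgb3, an integrin subunit to which CCN1 and CCN2 bind, had the highest score (737.64 at 46.6 kb), followed by Itga5 (272.89 at 26.6 kb) and Itgam (142.57 at 58.7 kb). Each of these 3 peaks was nearer to another gene, Myl4, Gtsf1 and Trim72 in that order. Itga5 and Sdc4, a heparan sulfate proteoglycan, also contained a peak of their own, and Itgav, Itgb5 and Itgb6 had weaker ones nearby. Among growth factors that CCN proteins bind the count was 2 of 8 (25%), with Vegfa (320.46 at 71.7 kb) and Bmp2 (135.39 at 53.0 kb). Tgfb1 had none, and within 50 kb no gene of this list had a peak, where the share of all protein-coding genes was 14%.

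Regulators of Ccn1 and Ccn2 transcription gave 7 of 12 (58.3%, against 22.0% of all protein-coding genes), with 6 of them within 10 kb (6.68% of all). By the nearest protein-coding span only, 5 were left (7.73% of all), and 3 had a peak scoring 100 or more (10.3% of all). Mrtfb, a coactivator of serum response factor, had a peak of 223.4 at 87.6 kb that was nearer to Parn. Its relative Mrtfa contained 3 peaks, the highest 210.52. Tead1, the DNA-binding partner of YAP, had 5 peaks, 3 of them inside, with a top score of 120.36. Wwtr1, which encodes the YAP relative TAZ, Tead3, Tead4 and Smad3 also had peaks, and Yap1 and Srf had none. Of 20 other genes known as YAP and TEAD targets, 8 (40%) had a peak. Within 10 kb there were 4 (6.68% of all), and by the nearest span only 5 (7.73% of all). Ankrd1 led them (1274.5, inside the span), followed by Dock5 (192.86 at 12.7 kb) and Myof (170.9 at 2.56 kb).

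Other matricellular genes gave 5 of 16 (31.2%, against 22.0% of all protein-coding genes). Within 10 kb there were 2 (6.68% of all), and by the nearest span only 4 (7.73% of all). Postn, encoding periostin, had a peak of 762.61 at 89.2 kb, Tgfbi one of 114.72 at 43.0 kb that was nearer to Lect2, and Thbs1, encoding thrombospondin 1, one of 77.76 inside the span. Of the 7 genes for IGF-binding proteins, whose domain CCN proteins share, 1 had a peak (14.3%, against 22.0% of all protein-coding genes). This was Igfbp4 (62.23 at 28.9 kb), and its peak was nearer to Tns4. The lists are small, no set test was made, and a peak counted within 100 kb is often nearer to another gene. Distances were taken from the whole span, and gene length was not matched between the lists and all protein-coding genes.

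**Figure D5:**
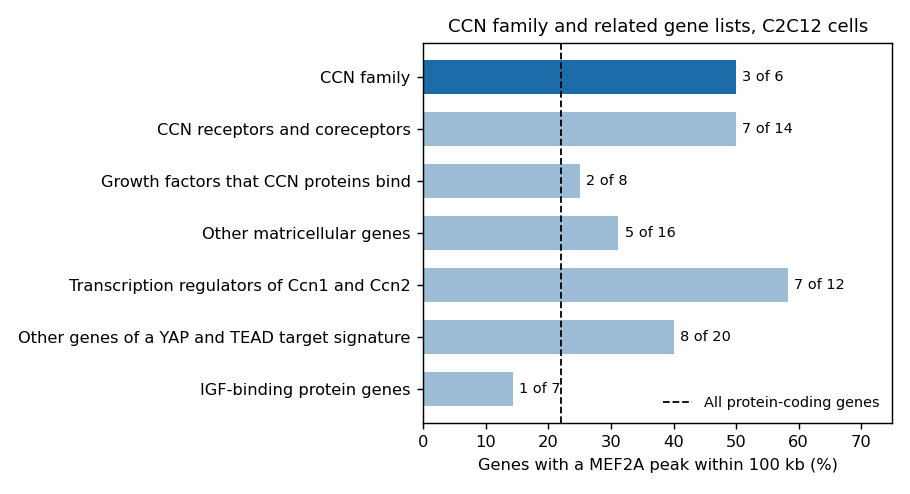
Share of genes with a C2C12 MEF2A peak within 100 kb (horizontal axis, percent) for the CCN family and 6 related lists, with counts beside the bars. The dashed line marks the 22.0% of all protein-coding genes; IGF-binding protein genes (1 of 7) lie below it, and the regulators of Ccn1 and Ccn2 (7 of 12) stand highest.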

How the data were processed

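MEF2A was immunoprecipitated from sonicated nuclei and sequenced by ChIP-exo after gel size selection, per the labels' protocols. Tools named in the submitters' processing notes, without settings, are MACS 1.4.2, BWA 0.5.9, CASAVA 1.7.0, SAMtools and Picard; the builds are mm10 and rn5. The authors deposited for each MEF2A library, not pooled, a list of peaks with position and a score, whose scale and control are not given in the sources used here. Scores start just above 50 and were used only within the C2C12 list. The depth is unknown, so no counting interval was computed.

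Members and lists were chosen with earlier results of these data known. Peak starts, taken as 0-based, are printed 1-based. Gene spans came from the RefSeq table of GRCm38.p6, without exons, and strand from its promoter table. Every peak within 100 kb of a span counted, with distance 0 inside. No test was made, since each group has 1 library. Genes named are the 6 members, up to 3 genes of each list by top score and the genes nearest to or beside member peaks. The 3 most alike in peak count and top score are also named. Others were named after their values were seen. Related list members without a top value are named only. The distance step was tested on simulated data with peaks planted at known distances, and recovered those within the limit. Python 3.11.15, numpy 2.4.6, pandas 2.3.3 and matplotlib 3.10.9 were used.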

Additional observations from a re-analysis of the deposited data

How the results depend on the processing

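The 3 members with a peak stayed at 3 with a distance limit of 10 or 50 kb, a score of at least 100, merging of peaks under 1 kb apart, or assignment to the nearest protein-coding span only. With a limit of 200 kb there were 4, through Ccn5, and with a score of at least 200 only Ccn4 was left (1). The share of all protein-coding genes ran from 4.66% (score of at least 200) to 35.2% (200 kb). Peaks near members numbered 4 at a score of at least 100 and 1 at 200, and from 8 (merged) to 14 (200 kb) otherwise. Merging left 4 near Ccn1 and 3 near Ccn4, so neither kept 5. Of the 11 peaks 7 score under 100, and no replicate or depth checks them. The longest run at Ccn1 and at Ccn4 was 2 peaks with a gap of at most 1 kb, and 1 and 2 among peaks scoring at least 100. The nearest gene was the member for 6 peaks in place of 10 with all annotated genes. Of 76 genes on the related lists, 30 had a peak within 100 kb (22.0% of all protein-coding genes did), 14 within 10 kb (6.68%), 14 with a score of at least 100 (10.3%), 7 with at least 200 (4.66%) and 19 by the nearest span only (7.73%). With 1 mismatch the MEF2 motif was in 0 of the 2 member promoters and in 6.99% of all windows. A class of spans of at most 5 kb, added after seeing the data, gave 26 genes with a peak inside (0.516%) in place of 13. Rat peaks and motifs under peaks, both planned, were not run for want of a rat annotation and a genome. No paired analysis was possible because none of the groups holds more than 1 library.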
